A study of Mus musculus with 3 samples.

Results

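Fos, Fosb, Jun, Junb, Egr1, Atf3 and Ier2 are immediate early genes, and Hspa1a, Hspa1b and Dnajb1 are heat shock genes. These 10 of the 27998 genes in the deposited matrices, 7 immediate early and 3 heat shock, were chosen by symbol, and each symbol matched 1 row. They were followed in myeloid cells sorted from mice carrying a subcutaneous B16F10 tumor, a mouse melanoma line, and profiled with droplet-based single-cell 3′ libraries that count unique molecular identifiers (UMIs). One library came from the tumor of a C57BL/6J mouse labelled FoxP3 DTR and treg-depleted, in which regulatory T cells (Tregs) were removed (the diphtheria toxin receptor allele of that name is used to delete Foxp3-expressing cells); one came from the tumor of a C57BL/6J control (WT), and one from the blood of C57BL/6J WT tumor-bearing controls. All animals carried the tumor, the FoxP3 DTR genotype and the depletion came together, and the labels give neither the number of animals behind a library nor the agent and timing of the depletion. The sort kept live CD45+ cells positive for CD11b, CD11c or both, and negative for CD90, NK1.1, Ly6G, B220 and SigF. Tumors were digested with DNase and collagenases at 37 °C under agitation, and blood was not, so tissue of origin and digestion cannot be told apart in any comparison of tumor with blood.

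Immediate early genes are transcribed within minutes of a stimulus, without new protein synthesis, through factors already present such as SRF, its ternary complex partners and CREB. The Fos and Jun proteins pair to form AP-1, a factor that in macrophages takes part in inflammatory transcription, while Egr1 is a zinc finger factor and Atf3 a stress-induced bZIP factor that limits inflammatory transcription. Heat shock genes answer unfolded protein through the factor HSF1: Hspa1a and Hspa1b encode the inducible Hsp70 chaperone, and Dnajb1 encodes an Hsp40 co-chaperone that delivers clients to it. Genes of both groups are also known to respond to warm enzymatic dissociation of tissues, which is why their behaviour in each cell type of a digested tumor was examined.

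The 150 bases before the RefSeq start sites (GRCm38.p6) of 3 members are shown because they carry textbook elements of both responses and because Hspa1a and Hspa1b are a near-identical pair. In Fos (chr12:85473740-85473889, plus strand) capitals mark the CRE core TGACG, part of the CREB site, and the TATA box. In Hspa1a (chr17:34972157-34972306, minus strand) and Hspa1b (chr17:34959239-34959388, minus strand) capitals mark a pair of heat shock units, GAANNTTC, and an inverted CCAAT box, ATTGG.
Fos: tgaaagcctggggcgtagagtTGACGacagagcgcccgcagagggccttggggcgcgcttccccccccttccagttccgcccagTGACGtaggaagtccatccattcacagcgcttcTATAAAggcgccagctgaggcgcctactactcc
Hspa1a: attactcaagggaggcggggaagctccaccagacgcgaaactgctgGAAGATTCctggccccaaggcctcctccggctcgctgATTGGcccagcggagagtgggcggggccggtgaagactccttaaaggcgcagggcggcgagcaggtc
Hspa1b: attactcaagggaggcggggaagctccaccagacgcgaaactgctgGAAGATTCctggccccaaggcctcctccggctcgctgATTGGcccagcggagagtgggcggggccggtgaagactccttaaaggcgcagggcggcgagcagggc
Of the 250 bases before the start, 247 were alike in Hspa1a and Hspa1b. On either strand of the same 250-base window, GAANNTTC occurred in 6.69% of 32817 RefSeq promoters, ATTGG in 33.8%, TGACG in 17.7% and TATAAA in 12.4%. Among the 8 members found in the promoter table, Jun also held a heat shock pair, GAATCTTC, and Atf3, Dnajb1, Fosb and Junb also held a CRE core. The AP-1 site TGANTCA and the full CRE TGACGTCA (in 6.75% and 1.55% of all promoters) were in none of these windows; a match or its absence describes these letters only.

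After filters (at least 1000 UMIs and 400 genes, at most 10% mitochondrial UMIs), the libraries held 4434 cells from the Treg-depleted tumor, 4443 from the control tumor and 5550 from blood, with medians of 3820, 6452 and 3550 UMIs per cell. Types were assigned by marker gates and are named with "-like"; 63.2%, 81.9% and 88.9% of cells passed a gate in the Treg-depleted tumor, the control tumor and blood, and the rest stayed unassigned. Each gated type used below except B cell-like cells held at least 7 of its listed markers at 20 CPM or more. CPM is a gene's part of all UMIs of the class on the usual count scale. Of the 8 listed B cell markers only 6 were found in the matrices, so B cell-like cells could not reach 7. T cell markers summed to 0.130 to 0.697 CPM in the monocyte-like cells of all libraries, and the gates also found NK cell-like, B cell-like and neutrophil-like cells, which the sort was set to remove. Libraries shared 27 to 36 cell barcodes pairwise. Free RNA was estimated at 6.97%, 3.40% and 4.27% of a cell's UMIs in the Treg-depleted tumor, the control tumor and blood, from marker genes of other types. Each group had a single library (1 per group), so groups were not tested against each other: levels are CPM over the summed UMIs of a type with 95% Poisson intervals, ratios are log2 with exact 95% intervals, and both cover counting error only. A ratio was read where a member had at least 20 UMIs in either class, and 2-fold was the size at which a gene was counted as higher or lower.

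In the control tumor, Fos, Junb, Atf3 and Hspa1a were at least 2-fold above their level in blood in monocyte-like cells, in nonclassical monocyte-like cells and in cDC2-like cells (type 2 conventional dendritic cells), the types with at least 50 cells in both libraries. Jun, Ier2 and Dnajb1 were within 2-fold of blood in all 3 types. In monocyte-like cells, 7 of 10 members were at least 2-fold higher in the control tumor, where 11.4% of all genes read were, and 0 were at least 2-fold lower, where 28.1% of all genes were. In nonclassical monocyte-like cells 5 of 8 members read were higher (9.21% of all genes) and 0 lower (24.2%). In cDC2-like cells 5 of 8 were higher (15.4%) and 0 lower (16.4%). The median log2 ratio of the members read was 1.50, 2.22 and 1.28 in the 3 types, against -0.46, -0.33 and -0.13 over all genes.

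Among the Fos genes, Fos itself measured 417 CPM (402 to 432) in monocyte-like cells of the control tumor and 160 CPM (154 to 167) in those of blood, a log2 ratio of 1.38 (1.30 to 1.46). In nonclassical monocyte-like cells, the patrolling blood monocytes, Fos measured 292 CPM in the control tumor and 47.8 CPM in blood, a log2 ratio of 2.61 (2.11 to 3.09). The nonclassical ratio lay above the classical one with no overlap of intervals, and the blood level was the lower one in nonclassical cells while the tumor levels were closer. Of the 53 nonclassical monocyte-like cells of the control tumor, 81.1% lay in a cluster led by Chil3 and Cd177 among others, which also held 499 monocyte-like cells. In blood 76.5% lay in another cluster, led by Eno3, Fabp4 and Cd300e, so the nonclassical ratios set unlike clusters side by side. Fosb, which also pairs with Jun proteins, was nearly missing from blood: 26 UMIs in 3238 monocyte-like cells, or 2.01 CPM (1.31 to 2.95), against 165 UMIs in 1253 cells, or 23.4 CPM, in the control tumor.

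The Jun genes split. Junb, a Jun protein with weaker activating power than Jun, measured 1184 CPM in control tumor and 332 CPM in blood monocyte-like cells, a log2 ratio of 1.83 (1.78 to 1.89). The Junb ratio was 1.82 (1.60 to 2.04) in nonclassical monocyte-like and 1.74 (1.57 to 1.92) in cDC2-like cells, so its 3 intervals overlapped. Jun, the core AP-1 subunit, measured 122 CPM in control tumor and 62.2 CPM in blood monocyte-like cells, a log2 ratio of 0.97 (0.83 to 1.11). In cDC2-like cells Jun measured 126 CPM in the control tumor and 105 CPM in blood, a log2 ratio of 0.26 (-0.11 to 0.64), so no Jun difference was detectable there and its interval lay below that of the monocyte-like cells.

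Atf3, like Fos, had its highest ratio in the nonclassical gate, with the same limit of unlike clusters. Its log2 ratios were 3.18 (2.49 to 3.86) in nonclassical monocyte-like, 1.62 (1.45 to 1.80) in monocyte-like and 1.01 (0.36 to 1.71) in cDC2-like cells. Egr1 was a low gene in monocytes: 15.2 CPM (107 UMIs) in control tumor and 6.19 CPM (80 UMIs) in blood monocyte-like cells, a log2 ratio of 1.29 (0.86 to 1.73). Ier2, a nuclear protein induced by growth factors, did not share the pattern. In monocyte-like cells Ier2 measured 172 CPM (162 to 182) in the control tumor against 235 CPM (227 to 244) in blood, a log2 ratio of -0.45 (-0.55 to -0.35), and its ratio was 0.48 (0.15 to 0.80) in nonclassical monocyte-like and -0.05 (-0.33 to 0.23) in cDC2-like cells. Over all cells, whose types differ between the libraries, Ier2 measured 113 CPM in the control tumor and 250 CPM in blood.

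The heat shock genes gave the widest gap. In monocyte-like cells Hspa1a measured 171 CPM (162 to 181) in the control tumor against 8.75 CPM (7.21 to 10.5) in blood, a log2 ratio of 4.29 (4.01 to 4.58). Its log2 ratio was 3.83 (2.98 to 4.85) in cDC2-like cells and 6.11 (5.53 to 6.74) in nonclassical monocyte-like cells. One cell held 108 of the 144 Hspa1a UMIs of the 53 nonclassical cells of the control tumor, and without it the level was 206 CPM in place of 792. Hspa1b measured 11.4 CPM in control tumor and 0.774 CPM (10 UMIs) in blood monocyte-like cells, a log2 ratio of 3.87 (2.92 to 4.99). Dnajb1, by contrast, differed little: 43.0 CPM in control tumor and 30.9 CPM in blood monocyte-like cells, a log2 ratio of 0.48 (0.26 to 0.70), and in cDC2-like cells 45.4 CPM in the control tumor and 40.6 CPM in blood.

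**Figure D1:**
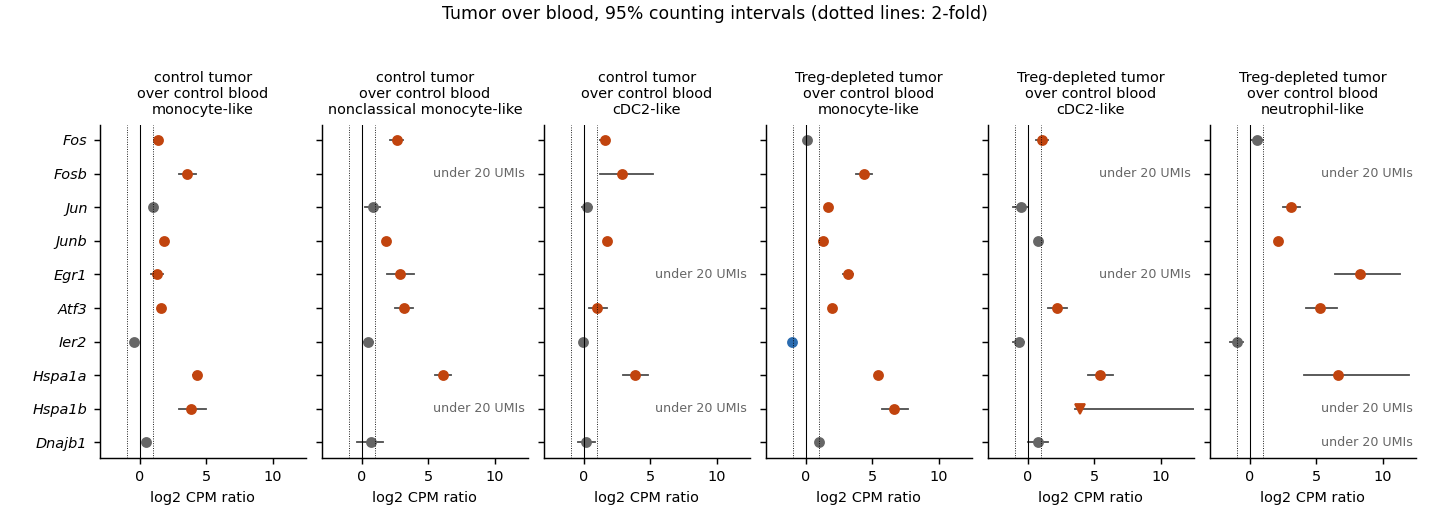
Log2 CPM ratios of the 10 genes (rows) for a tumor over control blood, 1 panel per tumor and gated type with at least 50 cells in both libraries, with 95% counting intervals; a triangle is a lower bound against 0 UMIs in blood, orange points are at least 2-fold higher in the tumor, blue at least 2-fold lower, grey between. Hspa1a lies at 3.83 to 6.64 in all 6 panels, while Ier2 lies at -1.02 to 0.48.

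**Figure D2:**
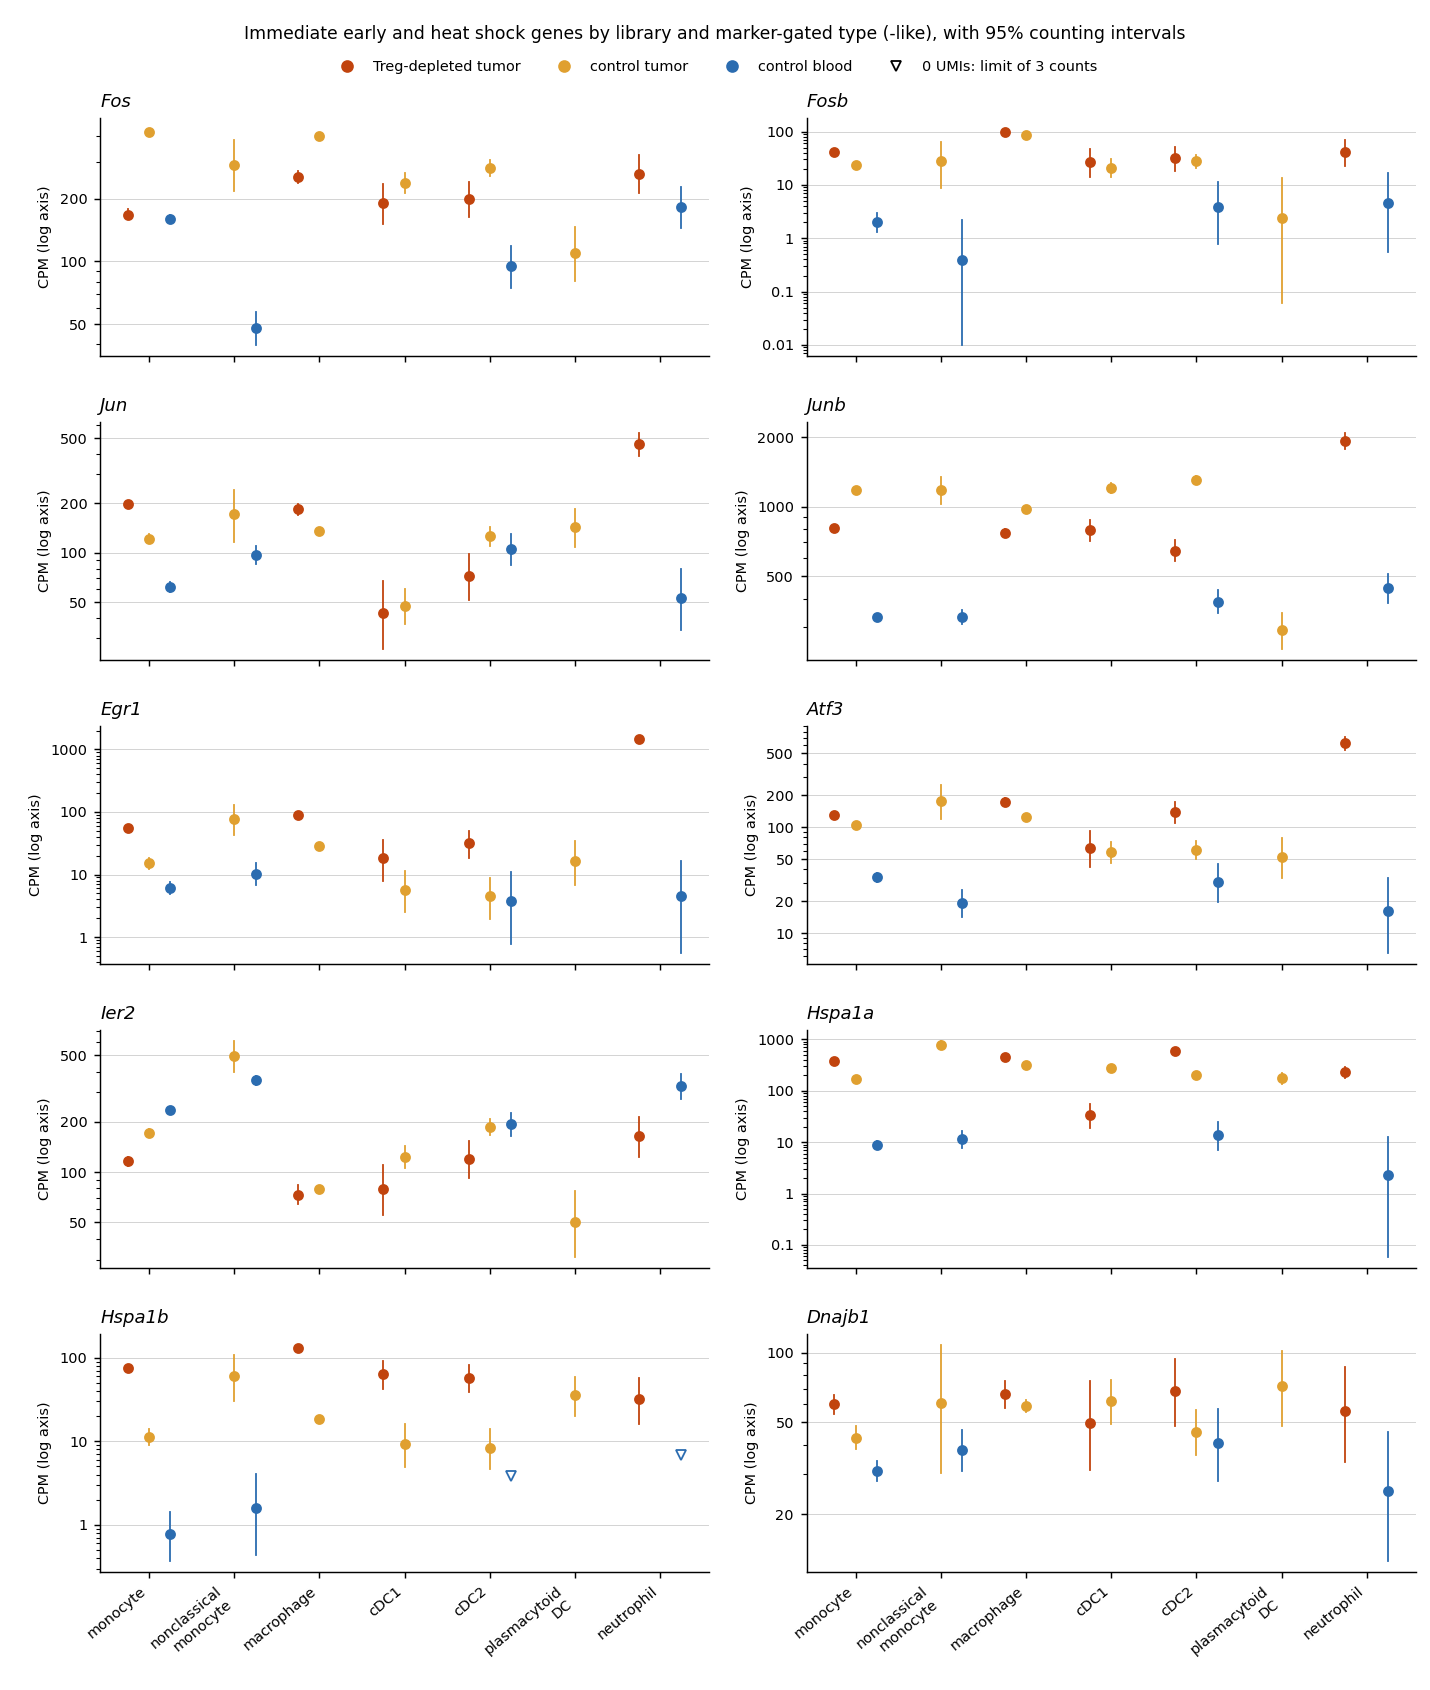
CPM of each gene (log axis, 1 panel per gene) in the marker-gated types of the Treg-depleted tumor, the control tumor and control blood, with 95% Poisson intervals; open triangles mark 0 UMIs, drawn at the limit of 3 counts. Hspa1a in blood stays between 2.30 and 13.9 CPM in the types shown, and Egr1 and Atf3 stand highest in the neutrophil-like cells from the Treg-depleted tumor.

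The types of a tumor did not stand at 1 common level. In the control tumor, the 7 immediate early genes summed to 2416 CPM in nonclassical monocyte-like, 2037 in monocyte-like, 1986 in cDC2-like, 1834 in macrophage-like and 1694 in cDC1-like cells (type 1 conventional dendritic cells), but to 667 CPM (591 to 750) in plasmacytoid DC-like cells. In blood the same sum was narrower, with 1032 CPM in neutrophil-like, 862 in nonclassical monocyte-like, 832 in monocyte-like, 820 in cDC2-like, 714 in NK cell-like and 641 in B cell-like cells. The sum in plasmacytoid DC-like cells of the control tumor was inside the range of these blood types but above that of the 24 plasmacytoid DC-like cells of blood, at 353 CPM (236 to 507), a class under the 50 cells used for comparisons.

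Single members had ranges of unequal width. Fos ran from 110 CPM (80.5 to 147) in plasmacytoid DC-like cells to 417 CPM in monocyte-like cells of the control tumor, a factor of 3.79. Junb ran from 292 CPM in plasmacytoid DC-like cells to 1299 CPM in cDC2-like cells, a factor of 4.45, and Ier2 from 50.2 CPM in plasmacytoid DC-like cells to 495 CPM in nonclassical monocyte-like cells, a factor of 9.86. Dnajb1 had the narrowest range of the members in the control tumor, 43.0 CPM in monocyte-like to 71.7 CPM in plasmacytoid DC-like cells. The plasmacytoid DC-like cells were low in Fos, Junb and Ier2, while Jun measured 143 CPM (109 to 185), beside the 136 CPM of macrophage-like cells. One cell held 20 of their 60 Jun UMIs, and without it Jun measured 97.5 CPM.

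Neighbours in these orders were often not separated by counting. In the control tumor, Fos in macrophage-like cells (401 CPM, 393 to 410) and monocyte-like cells (402 to 432) overlapped, as did nonclassical monocyte-like (218 to 381) and cDC2-like cells (256 to 306). Hspa1a in monocyte-like (162 to 181), plasmacytoid DC-like (137 to 219) and cDC2-like cells (179 to 221) also overlapped.

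The share of cells with a UMI gave the same picture for the frequent genes. After thinning each cell to 1000 UMIs, Fos was found in 26.8% of control tumor and 12.3% of blood monocyte-like cells (59.8% and 32.3% unthinned). Junb was found in 62.8% of control tumor and 27.2% of blood monocyte-like cells (93.7% and 65.3% unthinned), and Ier2 in 16.0% of control tumor and 21.7% of blood monocyte-like cells (49.7% and 57.7% unthinned). Barcodes with 10 to 100 UMIs, which hold mostly free RNA, carried 353 CPM of Hspa1a in the control tumor and 44.8 CPM in blood. They carried 434 CPM of Fos in the control tumor and 274 CPM in blood, and 172 CPM of Ier2 in the control tumor and 433 CPM in blood. Free RNA thus differed between the libraries in the same direction as the cells for these 3 genes, and its part in the shares was not tested.

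Cells of the Treg-depleted tumor were set against the same blood library, so the comparison shares its reference with the one above. In monocyte-like cells 7 of 10 members were at least 2-fold higher in the Treg-depleted tumor (14.5% of all genes) and 1, Ier2, was lower (29.6%). In cDC2-like cells, 4 of 8 members read were higher (13.9%) and 0 lower (24.3%). Over the whole monocyte-like gate Fos was near its blood level, at 168 CPM (159 to 178) in the Treg-depleted tumor and 160 CPM in blood. The log2 ratio of Fos was 0.07 (-0.03 to 0.17), while Jun, at 197 CPM, had a log2 ratio of 1.66 (1.53 to 1.78). That gate pooled unlike clusters in the Treg-depleted tumor. Its cells in cluster 1, led by Hp and Vcan, had Fos at 119 CPM (105 to 135), under the blood level. Those in cluster 0, led by Retnla and Ccl8, had 154 CPM, and those in cluster 2, led by Dct and Cd200, 284 CPM. Ier2 measured 116 CPM in monocyte-like cells from the Treg-depleted tumor, a log2 ratio to blood of -1.02 (-1.13 to -0.91), or -0.74 when scaled by the median gene ratio. Hspa1b measured 75.6 CPM in the Treg-depleted tumor, a log2 ratio to blood of 6.61 (5.72 to 7.68) resting on 10 blood UMIs. This level too was a mixture, with Hspa1b at 10.7 CPM in cluster 1, 89.7 CPM in cluster 0 and 140 CPM in cluster 2.

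The neutrophil-like cells from the Treg-depleted tumor carried the highest immediate early levels among the types with at least 50 cells in any library, at a sum of 4923 CPM (4690 to 5164) for the 7 genes. Egr1 measured 1444 CPM (1319 to 1578) in these 155 cells, against 4.61 CPM (2 UMIs) in the 177 neutrophil-like cells of blood. Thinned to 1000 UMIs, 61.3% of them held an Egr1 UMI, against 4.31% of the monocyte-like cells of the same tumor, and the few-UMI barcodes of that library held Egr1 at 136 CPM. Atf3 measured 622 CPM (541 to 712) in neutrophil-like cells from the Treg-depleted tumor and 16.1 CPM in those of blood, a log2 ratio of 5.27 (4.20 to 6.60).

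Jun measured 458 CPM in neutrophil-like cells from the Treg-depleted tumor and 53.0 CPM in those of blood, and Junb 1929 CPM in the Treg-depleted tumor and 445 CPM in blood. Fos was closer, at 264 CPM (212 to 325) in the Treg-depleted tumor and 182 CPM (144 to 227) in blood, a log2 ratio of 0.54 (0.09 to 0.99), and Ier2 was lower, at 164 CPM in the Treg-depleted tumor and 327 CPM in blood, a log2 ratio of -0.99 (-1.47 to -0.54). Neutrophil-like cells had a background of wide differences: 5 of 7 members read were higher (27.0% of all genes) and 0 lower (41.0%). In the Treg-depleted tumor 93.5% of these cells lay in a cluster led by S100a9, G0s2 and Retnlg, while in blood 97.7% lay in another, led by Ngp, Camp and Ltf, genes of granules made early in neutrophil maturation. The sort removed Ly6G+ cells, so the neutrophil-like cells are those that passed that gate.

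Between the tumors, the members differed in both directions. In monocyte-like cells Egr1, Hspa1a and Hspa1b were at least 2-fold higher in the Treg-depleted tumor, 3 of 10 members where 10.0% of all genes were, and Fos was at least 2-fold lower, 1 of 10 where 5.20% of all genes were. In macrophage-like cells Egr1 and Hspa1b were higher, 2 of 10 (8.46% of all genes), and 0 were lower (10.3%). The median log2 ratio of the members was 0.59 in monocyte-like and 0.34 in macrophage-like cells, against 0.01 and -0.05 over all genes.

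Fos measured 168 CPM in monocyte-like cells from the Treg-depleted tumor and 417 CPM in those of the control tumor, a log2 ratio of -1.31 (-1.40 to -1.21), which was -0.75 with types named by cluster. In macrophage-like cells Fos measured 255 CPM in the Treg-depleted tumor and 401 CPM in the control tumor, a log2 ratio of -0.65 (-0.76 to -0.55). Junb was lower with it, at 809 CPM in the Treg-depleted and 1184 CPM in the control tumor in monocyte-like cells (log2 ratio -0.55), and at 769 CPM in the Treg-depleted and 980 CPM in the control tumor in macrophage-like cells (-0.35). Jun went the other way, at 197 CPM in the Treg-depleted tumor and 122 CPM in the control tumor in monocyte-like cells, and at 184 CPM in the Treg-depleted and 136 CPM in the control tumor in macrophage-like cells. The 2 subunits most often named together as AP-1, Fos and Jun, thus differed between the tumors in opposite directions in both types, each within 2-fold except Fos in monocyte-like cells. In cDC2-like cells Jun was lower, at 72.0 CPM in the Treg-depleted and 126 CPM in the control tumor, a log2 ratio of -0.81 (-1.34 to -0.31).

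Egr1 measured 55.3 CPM (50.1 to 60.8) in monocyte-like cells from the Treg-depleted tumor and 15.2 CPM (12.4 to 18.3) in those of the control tumor, a log2 ratio of 1.86 (1.56 to 2.18). Its log2 ratio in macrophage-like cells was 1.65 (1.44 to 1.85), from 89.1 CPM in the Treg-depleted tumor and 28.4 CPM in the control tumor. Fosb differed by 0.83 on the log2 scale in monocyte-like and 0.25 in macrophage-like cells, and Atf3 by 0.34 and 0.47. Ier2 measured 116 CPM in the Treg-depleted and 172 CPM in the control tumor in monocyte-like cells. In macrophage-like cells Ier2 measured 73.5 CPM in the Treg-depleted and 78.9 CPM in the control tumor, where the ratio of -0.10 (-0.30 to 0.09) was not separable from 0.

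In dendritic cells the counts were smaller. In cDC2-like cells 3 of 9 members read were at least 2-fold higher in the Treg-depleted tumor (5.77% of all genes), namely Atf3, Hspa1a and Hspa1b, and 1, Junb, lower (10.5%). Hspa1a there had a log2 ratio of 1.57, which was 0.98 when each cell's own CPM was averaged. Of the cDC2-like cells, 59.8% in the Treg-depleted tumor lay in cluster 5 of a clustering without the listed genes, led by dendritic genes, 27.2% in cluster 0 and 11 of the 92 cells in cluster 2, while 91.7% in the control tumor lay in cluster 5. Among cDC2-like cells of cluster 5, Hspa1a measured 342 CPM in the Treg-depleted and 199 CPM in the control tumor, and Hspa1b 9.16 CPM (3 UMIs) in the Treg-depleted and 7.34 CPM (12 UMIs) in the control tumor, so neither was 2-fold higher there. Atf3 still was, at 156 CPM in the Treg-depleted and 62.4 CPM in the control tumor. Junb measured 645 CPM in cDC2-like cells from the Treg-depleted tumor and 1299 CPM in those of the control tumor, a log2 ratio of -1.01 (-1.18 to -0.85) at the edge of the 2-fold size. In cDC1-like cells 1 of 9, Hspa1b, was higher (3.84%) and 1, Hspa1a, lower (7.61%).

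**Figure D3:**
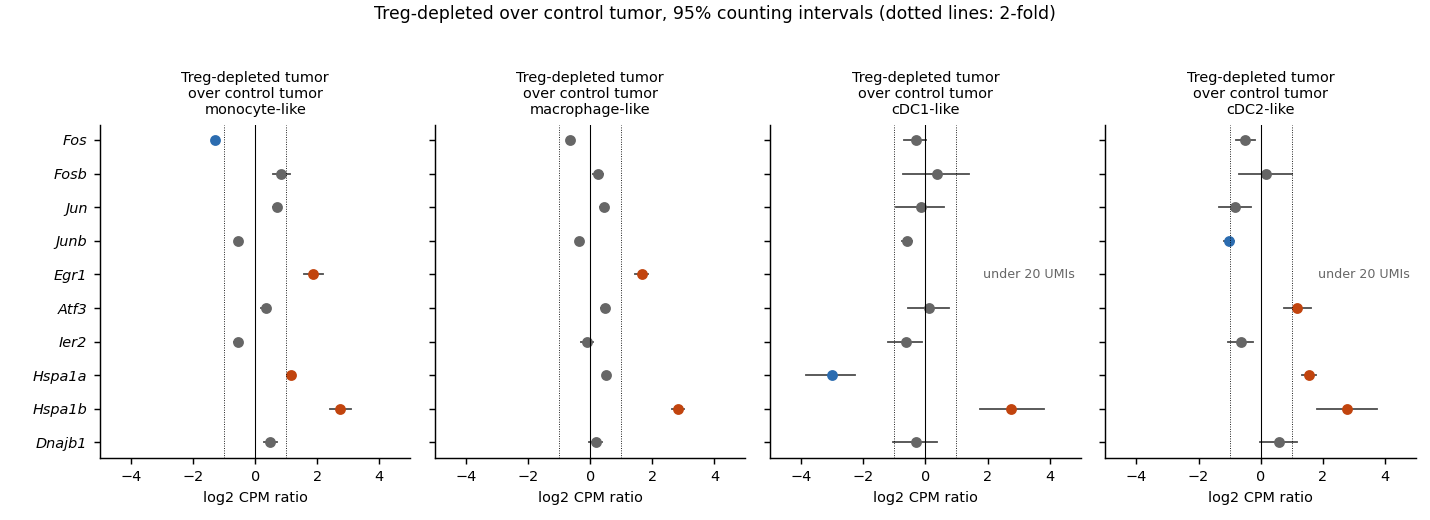
Log2 CPM ratios of the 10 genes (rows) for the Treg-depleted tumor over the control tumor in 4 gated types, with 95% counting intervals and dotted lines at 2-fold; orange points are at least 2-fold higher in the Treg-depleted tumor, blue at least 2-fold lower. Hspa1b lies at 2.73 to 2.83 in all 4 types, while Hspa1a runs from -3.01 in cDC1-like to 1.57 in cDC2-like cells.

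The same gate held different clusters in the 2 tumors, where clusters were built without the listed genes. Of the monocyte-like cells, 48.1% in the Treg-depleted tumor lay in cluster 0, led by Retnla, Ccl8 and Mrc1 with C1qa and C1qc of the macrophage markers, 26.2% in cluster 1 (Hp, Vcan, Ly6c2) and 20.7% in cluster 2 (Dct, Cd200, Mmp12). In the control tumor, 50.8% lay in cluster 3 (Mmp19, Cfb) and 39.8% in cluster 11 (Chil3, Cd177, Hp). Macrophage-like cells lay to 76.6% in cluster 0 in the Treg-depleted tumor and to 86.5% in cluster 6 (Ccl8, C1qa, Ccl12) in the control tumor. Cluster 0 was led by macrophage rather than monocyte markers, so the monocyte-like comparison of the tumors sets unlike mixtures side by side and the values by cluster are the closer reading.

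By cluster, the excess of Hspa1a, Hspa1b and Egr1 was not spread over the monocyte-like cells from the Treg-depleted tumor. Monocyte-like cells of cluster 1 had 71.5 CPM of Hspa1a, 10.7 CPM of Hspa1b and 13.5 CPM of Egr1. Those of cluster 11 in the control tumor, which share Cd177, Hp and Vcan among their leading genes, had 84.1 CPM of Hspa1a, 13.8 CPM of Hspa1b and 9.92 CPM of Egr1. The higher levels lay in cluster 2 of the Treg-depleted tumor, at 1033 CPM of Hspa1a, 140 CPM of Hspa1b and 115 CPM of Egr1, and in its cluster 0, at 301, 89.7 and 46.4 CPM of these genes. Few-UMI barcodes held Hspa1a and Hspa1b together at 808 CPM in the Treg-depleted and 372 CPM in the control tumor. Free RNA was estimated at 6.97% and 3.40% of a cell's UMIs there. Its part in the cluster levels, the low ones above all, was not tested.

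The lower Fos did hold in that pair. Monocyte-like cells of cluster 1 in the Treg-depleted tumor had 119 CPM of Fos and those of cluster 11 in the control tumor 314 CPM. Those of cluster 0 in the Treg-depleted tumor had 154 CPM of Fos and those of cluster 3 in the control tumor 451 CPM, but these clusters had unlike leading genes and are not a matched pair. Monocyte-like cells of cluster 2 in the Treg-depleted tumor had 284 CPM of Fos, the highest of the 3.

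Clusters 2, 3, 4 and 5 held at least 50 cells in both tumors. In cluster 2, led by Mmp12 and Mmp13 among others in both, 1101 cells of the Treg-depleted tumor and 88 of the control tumor carried Fos at 336 CPM in the Treg-depleted and 370 CPM in the control tumor, a log2 ratio of -0.14 (-0.35 to 0.08). Jun measured 254 CPM in the Treg-depleted and 261 CPM in the control tumor there, and Atf3 301 CPM in the Treg-depleted and 286 CPM in the control tumor, so neither was separable by counting. Hspa1a in cluster 2 measured 1052 CPM in the Treg-depleted tumor and 823 CPM in the control tumor, the highest cluster level of either, while Hspa1b measured 191 CPM in the Treg-depleted and 53.6 CPM in the control tumor (log2 ratio 1.83, 1.31 to 2.41). Egr1 measured 167 CPM in the Treg-depleted and 75.0 CPM in the control tumor (log2 ratio 1.15, 0.70 to 1.64). Cluster 2 thus had high Hspa1a in both tumors, and it made up 24.8% of the cells of the Treg-depleted tumor and 1.98% of those of the control tumor. Melanoma markers summed to 197 CPM in cluster 2 of the Treg-depleted tumor, against 1.31 to 12.8 CPM in its other clusters, and to 5.36 CPM in cluster 2 of the control tumor; their part in the levels was not tested.

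In cluster 5, led by dendritic genes such as Cd209a and Plet1, Hspa1a was lower in the Treg-depleted tumor, at 268 CPM and 374 CPM in the control tumor, a log2 ratio of -0.48 (-0.64 to -0.32). Hspa1b in cluster 5 was higher, at 34.6 CPM in the Treg-depleted and 16.7 CPM in the control tumor. Cluster 3 held Ier2 at 358 CPM in the Treg-depleted tumor, where Spic and Ace led it, and at 128 CPM in the control tumor, where Mmp19 and Cfb led it. Hspa1a in cluster 3 was lower in the Treg-depleted tumor, at 78.5 CPM and 188 CPM in the control tumor (log2 ratio -1.26, -1.76 to -0.79). Fos there was lower as well (-1.02, -1.34 to -0.72), and Egr1 was higher (1.82, 1.02 to 2.55, on 19 UMIs in the Treg-depleted tumor). In cluster 4, the neutrophil cluster, Egr1 measured 1442 CPM in 234 cells of the Treg-depleted tumor and 627 CPM (507 to 768) in 58 cells of the control tumor, so Egr1 was high in tumor neutrophils of both. Jun in cluster 4 measured 582 CPM in the Treg-depleted and 153 CPM in the control tumor, and Atf3 680 CPM in the Treg-depleted and 187 CPM in the control tumor. Fos measured 288 CPM in the Treg-depleted and 607 CPM in the control tumor, so in cluster 4 Fos was lower and Jun higher in the Treg-depleted tumor. In the dendritic cluster 5 both were lower, with Jun at 92.7 CPM in the Treg-depleted and 122 CPM in the control tumor (log2 ratio -0.40, -0.67 to -0.13) and Fos at 195 CPM in the Treg-depleted and 355 CPM in the control tumor.

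**Figure D4:**
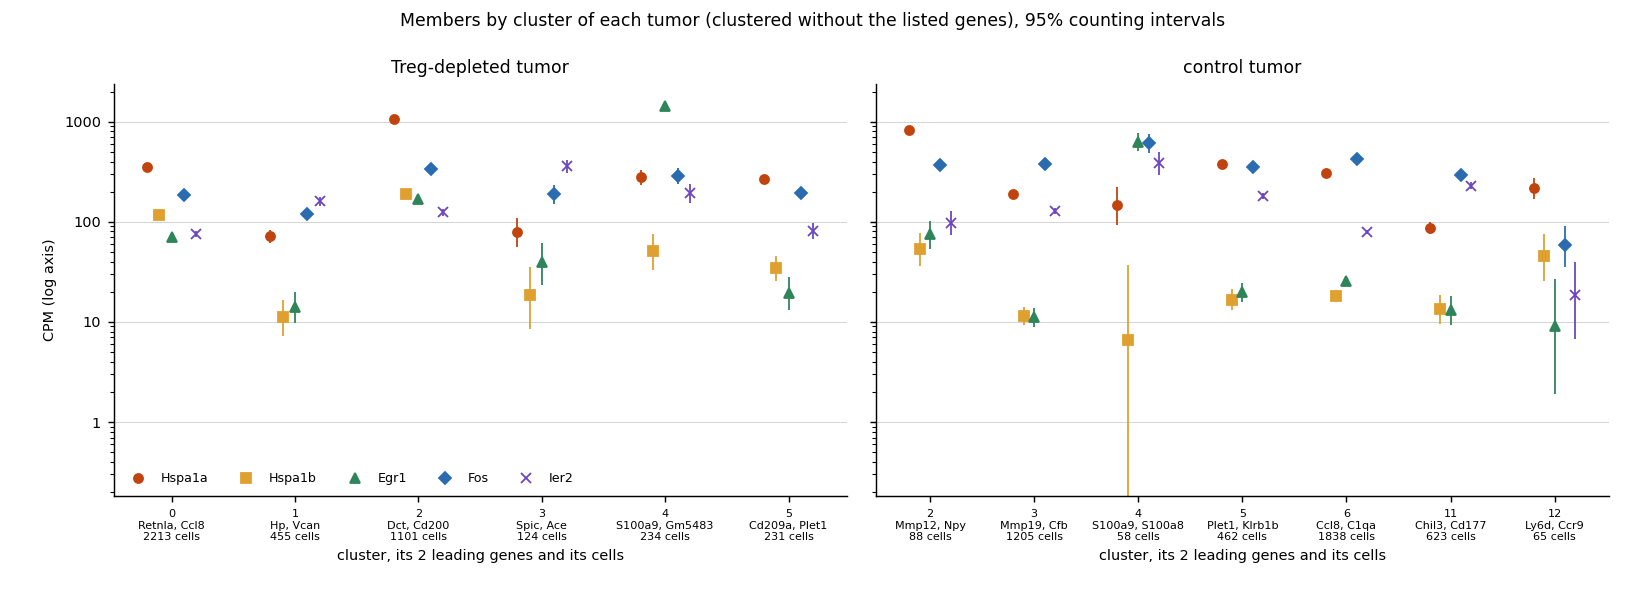
CPM (log axis) of 5 members in each cluster of at least 50 cells, Treg-depleted tumor left and control tumor right, with 95% Poisson intervals; below each cluster stand its number, its 2 leading genes and its cells. Hspa1a peaks in cluster 2 of both tumors (1052 and 823 CPM), Egr1 in cluster 4 (1442 and 627 CPM).

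Hspa1a came from few cells. In the Treg-depleted tumor 206 of 4434 cells (4.65%) held at least 10 Hspa1a UMIs each and together 72.6% of all Hspa1a UMIs, and in the control tumor 220 of 4443 cells (4.95%) held 81.8%. In blood 0 of 5550 cells reached 10 UMIs, and the highest cell had 4. Among monocyte-like cells, 62 of 1647 (3.76%) in the Treg-depleted tumor and 28 of 1253 (2.23%) in the control tumor held 10 or more; among macrophage-like cells, 43 of 734 (5.86%) in the Treg-depleted tumor and 138 of 1789 (7.71%) in the control tumor did.

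So in macrophage-like cells the level of Hspa1a was higher in the Treg-depleted tumor, at 453 against 318 CPM in the control tumor, while the share of cells with 10 or more UMIs was lower, at a median depth of 3978.5 UMIs in the Treg-depleted and 9686 UMIs in the control tumor. The top 5% of cells held 74.2% of Hspa1a UMIs in the Treg-depleted tumor and 82.1% in the control tumor. For Egr1 those shares were 66.6% in the Treg-depleted and 81.0% in the control tumor, and for Junb, found in most cells, 22.2% in the Treg-depleted and 22.3% in the control tumor. Types with few cells therefore rest on single cells: 145 of 319 Hspa1a UMIs of the Treg-depleted cDC2-like cells, 142 of 380 of the control tumor cDC1-like cells, and 68 of 73 of the plasmacytoid DC-like cells came from 1 cell each. The plasmacytoid DC-like level was 175 CPM with that cell and 12.2 CPM without it, next to blood types at 2.30 to 13.9 CPM.

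Shallow cells held more Hspa1a. In the Treg-depleted tumor, monocyte-like cells above the median depth had 293 CPM and those under it 584 CPM, and in the control tumor those above it had 110 CPM and those under it 282 CPM. In macrophage-like cells the level was 397 CPM above and 595 CPM under the median depth in the Treg-depleted tumor, and 275 CPM above and 452 CPM under it in the control tumor. Other members did the same in monocyte-like cells from the Treg-depleted tumor. Hspa1b measured 45.4 CPM above and 142 CPM under the median depth there, and Egr1 35.9 and 97.9 CPM. Log2 ratios of above over under were -1.40 for Fosb, -1.22 for Atf3, -0.86 for Fos, -0.44 for Jun and -0.13 for Junb. Ier2 (-0.14 to 0.28) and Dnajb1 (-0.44 to 0.13) were not separable from 0. In control tumor monocyte-like cells neither were Egr1 (-0.42 to 0.81) and Hspa1b (-0.95 to 0.42). By mitochondrial share, cells under the median had more Hspa1a in monocyte-like cells from the Treg-depleted tumor (456 against 303 CPM) and less in those of the control tumor (153 against 192 CPM), so that relation had no common sign. The clusters pooled in the monocyte-like gate from the Treg-depleted tumor also differed in depth and mitochondrial share. Over all their cells, median depth was 3490 UMIs in cluster 2, 4015 in cluster 0 and 4870 in cluster 1. Median mitochondrial share was 2.16%, 3.30% and 2.23% in the same order. These splits therefore sort cells partly by cluster, and no split within a cluster was made. RNA quality and cluster mixture as sources of the depth relation were not tested.

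Heat shock UMIs met in the same cells, and immediate early UMIs joined them in some types. Thinned to 1000 UMIs, 31.2% (24.9 to 38.1) of the 202 monocyte-like cells from the Treg-depleted tumor with Hspa1a also had Hspa1b, against 2.63% (1.87 to 3.59) of those without. In macrophage-like cells of the control tumor 10.3% of the cells with Hspa1a and 0.646% of those without had Hspa1b. Fos was found in 45.0% (38.7 to 51.5) of the Hspa1a-positive macrophage-like cells of the control tumor and in 24.9% (22.7 to 27.1) of the negative ones, and Jun in 26.0% of the positive and 9.70% of the negative ones. In monocyte-like cells of the control tumor Jun was found in 30.3% (19.6 to 42.9) of the Hspa1a-positive and 9.94% (8.30 to 11.8) of the negative cells, but the Fos shares, 22 of 66 of the positive and 314 of 1187 of the negative ones, were not separable by counting. Neither were the Egr1 shares, 3.03% (0.369 to 10.5) of the positive and 1.18% (0.646 to 1.97) of the negative ones. All these shares are over whole gates. The monocyte-like gate from the Treg-depleted tumor pooled clusters that differ in Hspa1a, Hspa1b, Egr1 and Fos together. The part of that mixture in shared detection was not tested.

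Egr1 went with Fos: it was found in 15.6% of Fos-positive and 2.76% of Fos-negative monocyte-like cells from the Treg-depleted tumor, and in 5.06% of Fos-positive and 0.849% of Fos-negative macrophage-like cells of the control tumor. In monocyte-like cells of the control tumor the Egr1 share of Fos-positive cells, 1.49% (0.485 to 3.44), was not separable by counting from that of Fos-negative cells. The Jun shares of Fos-positive and Fos-negative monocyte-like cells overlapped in every library: 22.6% (17.0 to 29.1) of the positive and 16.0% (14.2 to 18.0) of the negative cells in the Treg-depleted tumor, 13.4% (9.94 to 17.5) and 10.1% (8.26 to 12.3) in the control tumor, and 6.02% (3.89 to 8.82) and 5.57% (4.75 to 6.47) in blood. In macrophage-like cells of the control tumor the Jun shares did not overlap, at 16.2% (13.1 to 19.7) of Fos-positive and 10.3% (8.67 to 12.1) of Fos-negative cells. In those of the Treg-depleted tumor they did, at 21.0% (14.1 to 29.4) and 13.8% (11.2 to 16.8). These shares are over whole gates as well, with the same limit of pooled clusters. Cells of 1 library are not replicates, and these intervals describe the libraries.

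The split between Hspa1a and Hspa1b differed between the libraries. Hspa1b made up 19.2% (18.4 to 19.9) of the pair's UMIs in the Treg-depleted tumor, 5.68% (5.27 to 6.12) in the control tumor and 8.72% (5.16 to 13.6) in blood. In monocyte-like cells it was 16.4% in the Treg-depleted and 6.21% in the control tumor, in macrophage-like cells 22.2% in the Treg-depleted and 5.43% in the control tumor, and in cDC2-like cells 8.86% in the Treg-depleted and 4.05% in the control tumor. In cDC1-like cells it was 65.1% of 43 UMIs in the Treg-depleted tumor and 3.31% of 393 UMIs in the control tumor, so the measured Hspa1b part was higher in the Treg-depleted tumor in all 4 gated types. The cDC2-like intervals overlapped, at 6.10 to 12.3 in the Treg-depleted and 2.29 to 6.60 in the control tumor. In the Treg-depleted cDC1-like cells 12 of 28 Hspa1b UMIs came from 1 cell. The Hspa1b part was not higher among the cDC2-like cells of cluster 5, with 3 Hspa1b beside 112 Hspa1a UMIs in the Treg-depleted and 12 beside 326 in the control tumor. Few-UMI barcodes showed the split too, at 14.7%, 5.28% and 4.23% in the Treg-depleted tumor, the control tumor and blood.

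The transcripts share 58.8% of the 50-base stretches of Hspa1a and 62.3% of those of Hspa1b, but 0.00% within their last 500 bases, where 3′ reads mostly fall. How reads of the shared stretches were assigned is not given in the sources used here, so the sum of the pair is the safer value. Summed, the pair measured 460 CPM (445 to 475) in monocyte-like cells from the Treg-depleted tumor, 183 CPM (173 to 193) in those of the control tumor and 9.52 CPM (7.91 to 11.4) in those of blood, and in macrophage-like cells 582 CPM in the Treg-depleted and 337 CPM in the control tumor. The sum kept the order of Hspa1a in both types. In cDC1-like cells the sum was 97.2 CPM in the Treg-depleted tumor and 282 CPM in the control tumor.

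Over the 17 library and type classes with at least 50 cells (types named CCR7 DC-like left out), log2(CPM + 5) levels of the members were correlated as a description; the classes of a library share its depth, free RNA and preparation, and no p is given. Fos was most like Junb among the members (Pearson r 0.84), Hspa1a most like Atf3 (0.84) and Hspa1b (0.82). Ier2 had a negative r with each of the other 9, from -0.13 with Egr1 to -0.56 with Hspa1b. Among 5045 genes, the 5 most like Fos were Pkm (0.88), Ninj1, Map2k3, Cd14 and Cxcl10 (0.84), each highest in monocyte-like cells of the control tumor. The 5 most like Hspa1a were Psme2 (0.92), Slc15a3, Cd14, Gabarapl1 and Ell2 (0.91). Cd14, the lipopolysaccharide co-receptor, ran from 6.40 to 5152 CPM over the classes and stood on both lists.

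Other genes of the same families were read by the same rule. Of 29 other immediate early genes read, 22 were at least 2-fold higher and 3 lower in control tumor than in blood monocyte-like cells, with a median log2 ratio of 2.54, above the 1.50 of the members. Of all genes read, 11.4% were higher and 28.1% lower. Nr4a2, an orphan nuclear receptor, measured 148 CPM in the control tumor and 0.619 CPM (8 UMIs) in blood. Ier3, an early gene tied to cell survival, measured 956 CPM in the control tumor and 8.05 CPM in blood, and Dusp5, a phosphatase that turns off ERK, 289 CPM in the control tumor and 7.59 CPM in blood. Tnfaip3 and Socs3, feedback inhibitors of NF-kB and of JAK-STAT signalling, had log2 ratios of 4.29 and 4.09.

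Of 14 other AP-1 and related bZIP genes, 9 were higher and 1 lower (median 1.38), where 11.4% of all genes were higher and 28.1% lower. Maff, a small Maf protein, measured 78.2 CPM in control tumor and 0.387 CPM (5 UMIs) in blood monocyte-like cells. Batf3 was the lower one, at 11.4 CPM in the control tumor and 83.8 CPM in blood. Of 15 upstream factors and kinases 3 were higher and 2 lower (median -0.36), beside the same 11.4% and 28.1% of all genes. Crem, a CREB family gene, measured 527 CPM in the control tumor and 7.12 CPM in blood, and Map2k3, a p38 kinase activator, 281 CPM in the control tumor and 38.4 CPM in blood. Mapk14, which encodes p38 alpha, measured 16.3 CPM in the control tumor and 77.7 CPM in blood, so activator and kinase differed in opposite directions.

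The chaperones outside the Hsp70 pair differed less. Of 21 other heat shock and chaperone genes read, 5 were higher and 0 lower in control tumor than in blood monocyte-like cells (median 0.38). Of all genes, 11.4% were higher and 28.1% lower. Hsp90aa1, the inducible Hsp90, measured 538 CPM in the control tumor and 172 CPM in blood. For the Treg-depleted tumor over blood the counts were 7 higher and 2 lower (median 0.18), where 14.5% of all genes were higher and 29.6% lower. Hsph1, an Hsp110 that exchanges nucleotides for Hsp70, measured 51.4 CPM in the Treg-depleted tumor and 10.6 CPM in blood. The median of this list was above that of all genes (-0.46 for the control tumor over blood and -0.39 for the Treg-depleted tumor over blood), and below that of the 3 heat shock members (3.87 and 5.46).

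Between the tumors, 4 of 29 other immediate early genes were higher in the Treg-depleted tumor and 3 lower in monocyte-like cells (median -0.06), where 10.0% of all genes were higher and 5.20% lower. Rhob measured 167 CPM in the Treg-depleted tumor and 50.7 CPM in the control tumor, and Klf4 114 CPM in the Treg-depleted and 50.1 CPM in the control tumor. Dusp2, a nuclear phosphatase, measured 71.4 CPM in the Treg-depleted and 239 CPM in the control tumor. The orphan receptor genes were lower too, Nr4a2 at 55.4 CPM in the Treg-depleted and 148 CPM in the control tumor, and Nr4a1 at 45.7 CPM in the Treg-depleted and 104 CPM in the control tumor.

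Among the bZIP genes, 4 of 14 were higher and 1 lower in monocyte-like cells (median 0.66), and 7 and 1 in macrophage-like cells (median 0.90). Maf, a macrophage factor, measured 195 CPM in the Treg-depleted tumor and 32.1 CPM in the control tumor in monocyte-like cells, and 234 CPM in the Treg-depleted and 62.7 CPM in the control tumor in macrophage-like cells. Egr2, the paralog of Egr1, measured 87.0 CPM in the Treg-depleted tumor and 29.9 CPM in the control tumor in macrophage-like cells, a log2 ratio of 1.54 beside the 1.65 of Egr1. Of 21 other chaperones 2 were higher and 1 lower in monocyte-like cells (median -0.09), and 1 and 2 in macrophage-like cells (median 0.08), near the shares of all genes (10.0% and 5.20% in monocyte-like, 8.46% and 10.3% in macrophage-like cells). Hsph1 was higher in both, with log2 ratios of 1.37 and 1.47, while Ubb, a polyubiquitin gene, measured 2192 CPM in the Treg-depleted and 3619 CPM in the control tumor in macrophage-like cells. Upstream factors were 1 higher and 1 lower of 15 in monocyte-like cells, with Crem at 230 CPM in the Treg-depleted tumor and 527 CPM in the control tumor.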

How the data were processed

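Matrices of UMI counts per gene and barcode were deposited by the authors, made with Cell Ranger 1.2 on mm10 per the submitters' processing notes; how reads were assigned to genes is not given in the sources used here. The 10 members, the gene lists and the markers were chosen with earlier results of these data known. Barcodes with at least 1000 UMIs, 400 genes and at most 10% mitochondrial UMIs were kept as cells. A type was assigned where at least 3 markers of its list were detected and its score led the next by 0.05; other cells stayed unassigned. The classes gated CCR7 DC-like were left out of comparisons, because most of them lay in macrophage clusters. Counts were summed per library and type, divided by the summed UMIs to give CPM, and given exact Poisson, Clopper-Pearson or binomial-based 95% intervals. A level of 0 was set against a floor of 3 counts. Intervals cover counting error only, and with 1 library per group no test was made. Cells were clustered with scanpy 1.11.5 (2000 variable genes without the listed genes, 30 components, 20 neighbours, Leiden resolution 1), giving 19 clusters. Cells were thinned to 1000 UMIs for shares. The doublet caller Scrublet marked 0 cells at its own threshold in each library, so doublets were kept and the cells with the highest scores were removed as an alternative. All members are named in every comparison; of each other list, at most 6 genes by absolute log2 ratio among those with at least 50 CPM in the higher class could be named. The 5 genes most like Fos and Hspa1a were ranked on log2(CPM + 5). Ratios, intervals and thinning were tested on simulated data (Python 3.11.15, numpy 2.4.6, scipy 1.17.1). Gene positions follow the GRCm38 annotation and promoters RefSeq GRCm38.p6. The 11 alternatives varied the UMI and mitochondrial limits, the naming of types, the CPM denominator, the scaling, free RNA, averaging per cell and the UMI minimum; removing the highest Scrublet scores or a member's top cell was added after seeing the data. No deposited column of another sample was used.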

Additional observations from a re-analysis of the deposited data

Results flagged for a closer look

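Hspa1a differed between the tumors in opposite directions in different types. Its log2 ratio, Treg-depleted tumor over control tumor, was 1.16 in monocyte-like and 1.57 in cDC2-like cells but -3.01 in cDC1-like cells, and the difference between the types was not tested. The cDC1-like value rests on 15 Hspa1a UMIs in 50 cells of the Treg-depleted tumor and on 380 UMIs in 118 cells of the control tumor, where 6 cells held 90.5% of them. Of the cDC1-like cells, 68.0% in the Treg-depleted tumor and 85.6% in the control tumor lay in cluster 5. Of the cDC2-like cells, 59.8% in the Treg-depleted tumor and 91.7% in the control tumor did, and those of cluster 5 had 342 CPM of Hspa1a in the Treg-depleted and 199 CPM in the control tumor.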

How the results depend on the processing

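Of 1212 recomputed member ratios, 1075 stayed within their counting interval of the main value, and 137 moved outside it. The 1075 include ratios that could not move. Dropping the UMI minimum changes which ratios are read but not their values, and naming types by cluster leaves the ratios over all cells unchanged. Of 64 ratios at least 2-fold in size, all 64 kept their sign (0 reversed). Of these, 56 stayed at least 2-fold under each alternative that gave a value. With types named by cluster, 0 members were at least 2-fold lower in Treg-depleted than control tumor monocyte-like cells, where Fos was at -0.75. With the UMI minimum set at 10% of the 99th percentile, 11 member and type pairs were at least 2-fold higher in the control tumor than in blood, against 17, where nonclassical cells gave no class of 50 cells. The ratios that lost 2-fold were Fos in monocyte-like cells (-1.38 to -0.75), Junb in cDC2-like cells (-1.05 to -0.94) and Hspa1a in cDC2-like cells (0.98 to 1.82) between the tumors, Ier2 over all cells (-1.22 to -0.80) and Atf3 in cDC2-like cells (0.65 to 1.72) for the control tumor over blood, and Ier2 over all cells (-1.29 to -0.91), Ier2 in monocyte-like cells (-1.12 to -0.74) and Fos in cDC2-like cells (0.60 to 1.18) for the Treg-depleted tumor over blood. Ratios read that reached 2-fold under an alternative were Fosb in monocyte-like (0.76 to 1.28), cDC1-like (0.12 to 1.34) and cDC2-like cells (-0.38 to 1.12) and Jun in cDC2-like cells (-1.02 to -0.77) between the tumors, Jun in monocyte-like cells (0.73 to 1.29) and Jun and Dnajb1 over all cells (0.79 to 1.21 and 0.67 to 1.10) for the control tumor over blood, and Dnajb1 in monocyte-like cells (0.90 to 1.24), Fos and Dnajb1 over all cells (0.57 to 1.03 and 0.87 to 1.26) and Ier2 in neutrophil-like cells (-1.29 to -0.64) for the Treg-depleted tumor over blood; the cause was not tested. Hspa1a in cDC1-like cells reached -5.21 with free RNA subtracted. Scaling by the median gene ratio raised control tumor over blood ratios in monocyte-like cells by 0.32, which put Jun at 1.29. The macrophage-like comparison by cluster could not be computed, with 38 such cells in the Treg-depleted tumor. No paired analysis was possible because each group had 1 library. Depth limits Egr1 and Hspa1b in dendritic cells and blood, where most classes held under 20 UMIs.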
